A study of Rattus norvegicus with 12 samples.

Results

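The data describe 10 genes of the early-response programme in RNA sequencing libraries of rat cerebral cortex after embolic stroke. The genes were taken by symbol from the 17268 genes of the count table: Egr1, Egr2, Egr3 and Egr4 (the EGR family), Nr4a1, Nr4a2 and Nr4a3 (the NR4A family), Npas4, Ier2 and Klf4. All 10 had counts and all 10 passed the low-count filter in every comparison. The study asked how delayed thrombolysis and acupuncture alter gene expression after stroke. All animals were adult male Sprague Dawley rats, with 3 libraries in each of 4 groups. Sham rats had the operation without a clot, and Model rats had a blood clot injected to occlude the middle cerebral artery. The rt-PA rats had the same stroke and received the thrombolytic enzyme recombinant tissue plasminogen activator at 6 h. The rt-PA+Acu rats had the stroke and rt-PA and also received Xingnao Kaiqiao acupuncture, a stimulation of the GV26 and PC6 points, at 2 h. No library came from rats given acupuncture without rt-PA, and the hour at which cortex was taken for sequencing is not given in the sources used here. The labels do not say in words that each library came from a separate rat, so p-values measure the spread between libraries, which may be technical.

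Early-response genes are switched on within minutes of a stimulus from factors already present in the cell, and their messages are short-lived. In neurons the stimulus is synaptic activity and calcium entry, and injury, growth factors and shear stress act in other cells. EGR proteins are zinc finger factors that bind GC-rich sites, and NAB proteins restrain them. NR4A proteins are orphan nuclear receptors that bind DNA alone or, for Nr4a1 and Nr4a2, with a retinoid X receptor. Npas4 is a bHLH-PAS factor that pairs with ARNT proteins and is known for its dependence on calcium in neurons. Ier2 is a small nuclear protein induced by growth factors, and Klf4 is a Krüppel-like factor found in endothelium among other cells. SRF acts on such genes through the CArG box and CREB through the cAMP response element (CRE).

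Promoter sequence is shown because these genes share a known route of induction while their levels below differ. RefSeq entries of the rat assembly GRCr8, with 250 bases before and 50 after the start of the gene, matched 8 of the 10 genes. Egr3 and Nr4a3 had no entry. The 250 bases before the start are printed 5′ to 3′ on the strand of the gene for Egr2, Egr4, Nr4a1 and Ier2. They are the gene with the largest fall below Sham, another EGR gene that fell, an NR4A gene that fell after stroke and the gene that rose after stroke. Capitals mark the CArG box, the bases TGACG or their complement CGTCA (the core of the CRE) and the EGR site GCGNGGGCG or its complement.
Egr2, GRCr8 chr20:21054442-21054691, minus strand: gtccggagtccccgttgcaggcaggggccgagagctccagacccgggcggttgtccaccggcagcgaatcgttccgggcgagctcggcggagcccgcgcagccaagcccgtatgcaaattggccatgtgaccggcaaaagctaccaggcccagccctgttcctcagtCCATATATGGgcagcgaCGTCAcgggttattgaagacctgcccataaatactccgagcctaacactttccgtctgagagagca
Egr4, GRCr8 chr4:119607818-119608067, minus strand: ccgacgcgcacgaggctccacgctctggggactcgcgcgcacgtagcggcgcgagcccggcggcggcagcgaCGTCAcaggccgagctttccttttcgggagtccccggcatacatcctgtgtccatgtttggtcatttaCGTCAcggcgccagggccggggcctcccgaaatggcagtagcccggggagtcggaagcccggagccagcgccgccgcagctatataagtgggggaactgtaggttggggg
Nr4a1, GRCr8 chr7:134259888-134260137, plus strand: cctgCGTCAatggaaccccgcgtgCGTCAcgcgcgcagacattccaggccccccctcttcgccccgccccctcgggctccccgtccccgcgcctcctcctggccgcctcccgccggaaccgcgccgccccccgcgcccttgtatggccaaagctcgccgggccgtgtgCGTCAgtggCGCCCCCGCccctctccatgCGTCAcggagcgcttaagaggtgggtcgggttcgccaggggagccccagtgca
Ier2, GRCr8 chr19:40399123-40399372, plus strand: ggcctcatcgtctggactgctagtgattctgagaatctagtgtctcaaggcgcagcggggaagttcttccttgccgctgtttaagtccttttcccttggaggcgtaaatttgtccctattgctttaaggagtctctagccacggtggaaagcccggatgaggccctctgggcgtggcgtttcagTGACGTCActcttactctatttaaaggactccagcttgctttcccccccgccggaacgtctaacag

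In the Egr2 sequence the CArG box CCATATATGG spanned bases 83 to 74 before the start and CGTCA spanned bases 66 to 62. The Egr1 promoter held the same CArG letters and the same CGTCA at the same distances, and a further CArG box, CCATATTAGG, at bases 105 to 96. The CArG box was found in 2 of the 8 promoters, against 1.64% of 27457 promoters of the same length. Ier2 was the 1 promoter of the 8 with the full CRE, TGACGTCA, at bases 66 to 59, against 1.91% of all promoters. The core TGACG on either strand was present in 6 of 8, against 22.0% of all, and was absent from the Npas4 and Klf4 windows. The full CRE contains the core, so these matches overlap. Nr4a1 held 4 cores and the only EGR site of the 8, at bases 73 to 65, against 5.29% of all promoters. The NR4A site AAAGGTCA was in none of the 8, against 1.29% of all. The search for the core was added after the sequences were seen, both strands were searched, and a match is only a match of letters. Starts were those of the RefSeq entries and were not checked against other data. A window set at another start could hold other matches, so a presence or an absence holds for these windows only.

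Library totals lay between 11678450 and 13616935 counts. A level is given here in CPM, the count relative to the library total after TMM scaling, on which 3 counts were worth 0.208 to 0.262 CPM. Neuron markers summed to 8223 to 8956 CPM in Sham libraries, 5878 to 6206 CPM in Model, 4577 to 5870 CPM with rt-PA and 5719 to 8937 CPM with acupuncture added, so neuronal RNA was present in all libraries. Markers of striatal neurons, which lie beneath the cortex, summed to 368 to 967 CPM in Sham against 155 to 289 CPM across all stroke groups. Model replicate 3 stood apart from its group. Its count of Rpl39 was 142, where Sham libraries held 105 to 151 and the remaining 8 held 488 to 990, and results that rest on it are given with and without it. Sham replicate 1 also stood apart in other early-response genes. It had 87.5 CPM of Fosb against 14.1 and 17.0 in its group, 50.6 CPM of Fos against 17.4 and 13.7, and 28.1 CPM of Ccn1 against 2.29 and 1.31. In rt-PA+Acu, replicate 3 stood apart, with neuron markers at 5719 CPM against 8504 and 8937 and oligodendrocyte markers at 3212 CPM against 21100 and 8754. Its counts differed from its group with a chi-square per degree of freedom of 51.1 and 36.1, against 20 between the other replicates. For Model replicate 3 these values were 35.6 and 20.4, against 12.6. For rt-PA replicate 2 they were 34.7 and 25.1, against 16.7. Oligodendrocyte markers of rt-PA replicate 2 summed to 11450 CPM, against 2695 and 3364 CPM in its group. In bulk tissue, fewer cells of a type and less RNA per cell cannot be told apart.

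**Figure D1:**
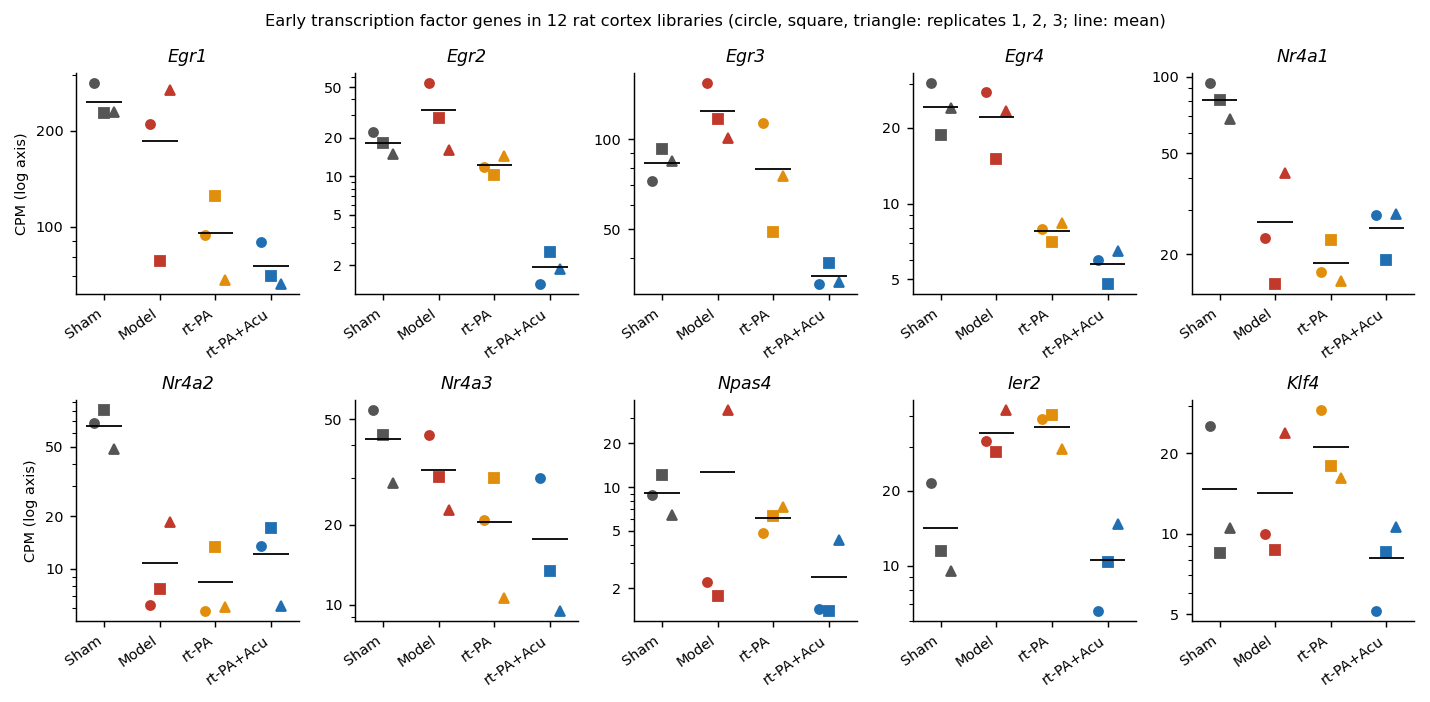
Level of each of the 10 genes in CPM (logarithmic axis) in the 12 libraries, in the 4 groups. Circles, squares and triangles are replicates 1, 2 and 3 and lines are group means. Egr2 in rt-PA+Acu, at 1.43 to 2.53 CPM, lies below every other library, and Npas4 in Model spans 1.78 to 33.9 CPM.

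Egr1, the most widely used marker of neuronal activity in the family, was highest in Sham. Its levels were 282, 228 and 229.9 CPM in Sham, and 209.9, 78.0 and 268 CPM in Model. They were 94.0, 125 and 68.0 CPM in rt-PA, and 89.5, 70.0 and 66.0 CPM with acupuncture added. The Model libraries overlapped both their neighbours in the order of means, because replicate 2 lay among the treated libraries and replicate 3 within Sham. The rt-PA and rt-PA+Acu libraries overlapped each other and all lay below Sham.

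Egr2, known for myelination and for activity in neurons, had its highest and its lowest values in stroke groups. It measured 22.2, 18.1 and 14.8 CPM in Sham, and 53.6, 28.9 and 16.1 CPM in Model. It measured 11.7, 10.3 and 14.5 CPM in rt-PA. In rt-PA+Acu it measured 1.43, 2.53 and 1.87 CPM, from 17, 29 and 25 counts. Model overlapped Sham through replicate 3, rt-PA lay just under the lowest Sham library, and rt-PA+Acu lay far below all other libraries.

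Egr3, induced by neuronal activity and by growth factors, had a narrower range. It stood at 72.6, 92.8 and 84.2 CPM in Sham, and at 154, 117 and 101 CPM in Model. It stood at 114, 49.0 and 75.1 CPM in rt-PA, and at 32.8, 38.6 and 33.3 CPM in rt-PA+Acu. All Model libraries lay above Sham, rt-PA overlapped both, and rt-PA+Acu lay below every other library.

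Egr4, the family member found mainly in neurons, separated into 2 levels. Sham had 30.1, 18.7 and 24.0 CPM, and Model had 27.9, 15.1 and 23.4 CPM. The rt-PA libraries had 7.91, 7.04 and 8.41 CPM, and the rt-PA+Acu libraries had 5.98, 4.80 and 6.49 CPM. Sham and Model overlapped each other, and both lay above the treated groups, which did not overlap.

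Nr4a1, an orphan receptor induced in neurons, myeloid cells and endothelium, was 94.2, 81.1 and 68.2 CPM in Sham. Model libraries had 23.1, 15.3 and 41.8 CPM, rt-PA libraries 17.1, 22.8 and 15.7 CPM, and rt-PA+Acu libraries 28.5, 18.9 and 28.8 CPM. All 9 stroke libraries lay below Sham and overlapped among themselves. Nr4a2, required for dopamine neurons and also expressed in cortex, was 68.3, 81.0 and 48.5 CPM in Sham. Model libraries had 6.18, 7.70 and 18.5 CPM, rt-PA libraries 5.76, 13.4 and 6.05 CPM, and rt-PA+Acu libraries 13.6, 17.1 and 6.12 CPM. Its stroke libraries again lay below Sham and overlapped among themselves. Nr4a3 was spread more widely, with 54.0, 43.4 and 28.7 CPM in Sham and 43.7, 30.3 and 22.7 CPM in Model. The treated libraries had 20.8, 29.9 and 10.6 CPM under rt-PA alone, and 29.9, 13.4 and 9.48 CPM under rt-PA+Acu. Each of its groups overlapped the next in the order of means.

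Npas4 was the most variable of the genes within 1 group. It had 8.78, 12.1 and 6.46 CPM in Sham and 4.79, 6.32 and 7.30 CPM in rt-PA. In Model it had 2.21, 1.78 and 33.9 CPM, a 19.1-fold range, from 29, 21 and 411 counts. In rt-PA+Acu it had 1.43, 1.40 and 4.33 CPM, all below Sham and rt-PA. Replicate 3 thus set the Model mean, and the other two lay below every Sham and rt-PA library.

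Ier2, unlike the NR4A genes, was higher in Model and rt-PA than in Sham. It had 21.6, 11.5 and 9.52 CPM in Sham, 31.7, 28.8 and 42.3 CPM in Model, and 38.9, 40.5 and 29.6 CPM in rt-PA. In rt-PA+Acu it had 6.57, 10.3 and 14.7 CPM. Model and rt-PA overlapped and lay above Sham and rt-PA+Acu, which also overlapped. Klf4 had 25.3, 8.49 and 10.5 CPM in Sham, and 10, 8.72 and 23.8 CPM in Model. It stood at 29.0, 18.0 and 16.1 CPM with rt-PA alone, and at 5.14, 8.55 and 10.6 CPM with acupuncture added. Sham replicate 1 and Model replicate 3 were high in their groups, and both groups overlapped all others. All rt-PA libraries lay above all rt-PA+Acu libraries.

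After stroke without treatment, the receptors Nr4a1 and Nr4a2 were lower and Ier2 was higher than in Sham. A gene was called when edgeR's quasi-likelihood test gave an adjusted p under 0.05 over all genes tested and the fold change was over 2. Of the 10 genes, 1 was called higher, against 9.43% of all 12884 genes tested, and 2 were called lower, against 12% of them. Nr4a2 fell by 2.61 on the log2 scale (SE 0.38, adjusted p = 0.000726), a 6.10-fold lower level. Nr4a1 fell by 1.60 (SE 0.31, adjusted p = 0.00318), a 3.02-fold lower level. Ier2 rose by 1.27 (SE 0.30, adjusted p = 0.00721). Egr3 was higher by 0.58 (SE 0.16, adjusted p = 0.0167), which passes the test but not the fold threshold. The median log2 difference of the 10 genes was -0.09, beside 0.01 for all genes tested.

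The other EGR genes did not pass in Model against Sham. Egr2 differed by 0.85 (SE 0.38, adjusted p = 0.0945), Egr1 by -0.41 (adjusted p = 0.376), Egr4 by -0.13 and Nr4a3 by -0.38. Npas4 differed by 0.47 with an SE of 0.95 (adjusted p = 0.696). Without Model replicate 3 the Npas4 value was -2.17 (adjusted p = 0.000998) and that of Egr2 was 1.18 (adjusted p = 0.00598), both called, so that 5 genes were called in place of 3. The Nr4a2 value was then -3.24, and the share of all genes called in that fit was not counted. That library also had the highest endothelial marker total of Model, 567 CPM against 318 and 339, and the part of this in its Npas4 and Klf4 levels was not tested. Klf4 differed by -0.06, with values from -0.64 to 0.58 when 1 library was left out.

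Many cell type markers moved in the same comparison. Called lower were 6 of 6 striatal neuron markers, 4 of 12 neuron markers, 5 of 6 astrocyte markers and 5 of 6 oligodendrocyte markers, and also 3 of 6 markers of homeostatic microglia and 1 of 6 of smooth muscle and pericytes. Astrocyte markers summed to 4631 to 5562 CPM in Sham and 1847 to 2199 CPM in Model, and oligodendrocyte markers to 11970 to 17900 CPM and 1672 to 8503 CPM. Called higher were 3 of 6 monocyte and macrophage markers, 2 of 5 neutrophil markers tested, 1 of 7 endothelial markers and 2 of 2 choroid plexus markers tested. Monocyte markers summed to 117 to 171 CPM in Sham and 268 to 340 CPM in Model, and Cd14, a co-receptor for endotoxin, was 111-fold higher (adjusted p = 3.41e-06 by edgeR). The part of these in the levels of Nr4a1, Nr4a2 and Ier2 was not tested.

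Other early-response genes were mostly higher after stroke. Of 20 listed, 18 were in the table, of which 11 were called higher and 1 lower, with a median of 1.504. Without Sham replicate 1, a choice made after seeing the data, 13 were called higher and 1 lower, with a median of 2.01. Maff, a small basic leucine zipper partner, was higher by 3.44 (SE 0.27, adjusted p = 4.04e-05). Jun, a subunit of AP-1, was higher by 2.10 (SE 0.15, adjusted p = 3.05e-05). Arc, a protein of the postsynapse, was the 1 called lower and fell by 1.12 (SE 0.28, adjusted p = 0.00947). Homer1, a postsynaptic scaffold, was at -0.06 (adjusted p = 0.736).

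Known targets of these factors split in Model against Sham. Nptx2, a secreted synaptic pentraxin and Npas4 target, had 69.8, 62.9 and 87.6 CPM in Sham and 1288, 1366 and 1200.0 CPM in Model. It was 17.6-fold higher (adjusted p = 3.41e-06). Bdnf, the neurotrophin that activity induces, had 36.7 to 40.2 CPM in Sham and 125 to 235 CPM in Model, a rise of 2.35 (adjusted p = 9.63e-05). Arc is both in this list and in that of the early genes. Among 7 partners and co-repressors, Rxrg, a retinoid X receptor, was the 1 called and fell by 3.99 (SE 0.63, adjusted p = 0.00107). Rxrg varied from 4.43 to 23.5 CPM within Sham, where Sham replicate 1 was lowest both for it and for the striatal markers. Among 12 upstream regulators, Crem, which makes the repressor ICER, was called higher by 1.74, and Mef2c, Crtc1 and Mrtfb were called lower, with log2 values of -1.67, -1.35 and -1.27.

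**Figure D2:**
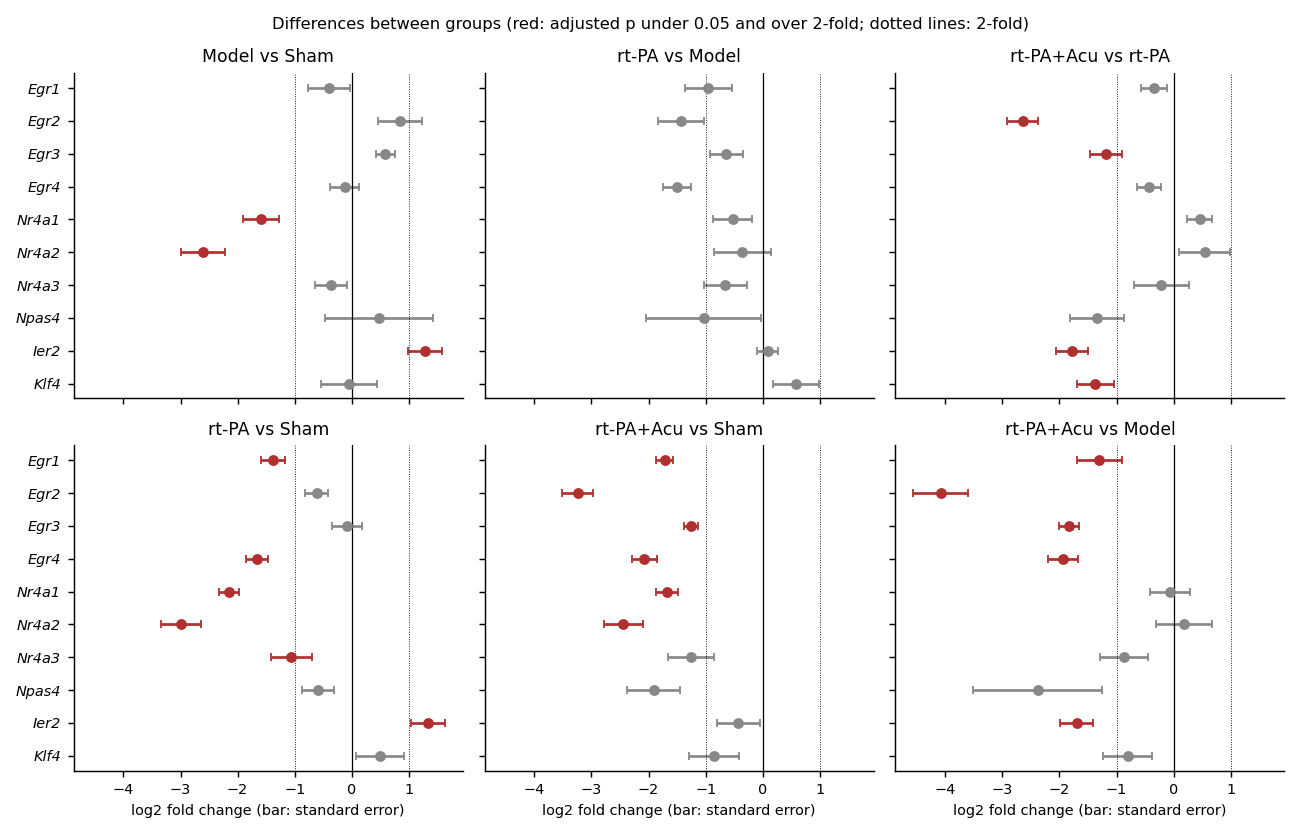
Log2 fold change of each gene in the 6 comparisons, with the standard error as a bar. Red points passed an adjusted p of 0.05 and a 2-fold change, and dotted lines mark 2-fold. Nr4a1 and Nr4a2 are red in each comparison of a stroke group with Sham, and Egr2 is red in each comparison of rt-PA+Acu with another group.

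Thrombolysis at 6 h was compared with untreated stroke to see what delayed rt-PA changes. None of the 10 genes was called by edgeR in rt-PA against Model, and the background was 0% higher and 0% lower, since 0 of 12941 genes were called. At an unadjusted p under 0.05 edgeR gave 672 genes higher and 612 lower, 2 of the latter among the 10. DESeq2 called 52 higher and 20 lower, again with 2 of the 10. Both times these were Egr4 and Egr2. Egr4 had a log2 value of -1.50 (SE 0.24, adjusted p = 0.177 by edgeR and 1.57e-05 by DESeq2). Egr2 had a value of -1.43 (SE 0.40, adjusted p = 0.351 by edgeR and 0.0199 by DESeq2). All rt-PA libraries lay below all Model libraries for both genes, and the share of all genes that separate in this way was not counted. Of the 10 genes, 8 had values below and 2 above Model, and the median was -0.65, beside 0.0039 for all genes tested. Egr1 differed by -0.95 (adjusted p = 0.505), and Npas4 by -1.04 with Model replicate 3 and by 1.61 without it. Egr3 was at -0.64, Nr4a1 at -0.53, Nr4a2 at -0.36 and Nr4a3 at -0.66, with adjusted p from 0.514 to 0.858 by edgeR. Ier2 was at 0.09 and Klf4 at 0.57, with adjusted p = 0.914 and 0.694. Of the 5 known targets, edgeR called 0, with 4 at an unadjusted p under 0.05, and DESeq2 called Nptx2, Bdnf and Arc lower. Nptx2 had a value of -1.64 with an adjusted p of 0.094 by edgeR and 1.03e-12 by DESeq2. Bdnf had a value of -1.69 with an adjusted p of 0.114 by edgeR and 3.3e-09 by DESeq2. Arc was at -1.03, with an adjusted p of 0.345 by edgeR and 0.0218 by DESeq2.

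Set against Sham, the rt-PA group had more of these genes lower than Model did, although that difference between comparisons was not tested and both use the same Sham libraries. The counts were 1 gene called higher, against 11% of 13023 genes tested, and 5 called lower, against 11.6%. Nr4a2 fell by 2.99 (SE 0.35, adjusted p = 0.000274) and Nr4a1 by 2.15 (SE 0.18, adjusted p = 5.46e-05). Egr4 fell by 1.66 (SE 0.20, adjusted p = 0.000322) and Egr1 by 1.39 (SE 0.21, adjusted p = 0.000936). Ier2 rose by 1.33 (SE 0.29, adjusted p = 0.00582). The fall of Nr4a3, 1.06 (SE 0.36, adjusted p = 0.0374), was lost in 6 of the alternatives, among them leaving out Sham replicate 1, Sham replicate 2, rt-PA replicate 1 or rt-PA replicate 3, with an adjusted p of up to 0.123. Egr2 was at -0.62 (adjusted p = 0.0316), under the fold threshold. Klf4 differed by 0.49 (adjusted p = 0.344), and by 1.13 (adjusted p = 0.0183) without Sham replicate 1. Npas4 was at -0.59 (adjusted p = 0.104) and Egr3 at -0.09 (adjusted p = 0.792). Markers moved here too, with 5 of 6 striatal, 5 of 12 neuron, 6 of 6 astrocyte and 4 of 6 oligodendrocyte markers called lower, and 5 of 6 monocyte and 5 of 6 neutrophil markers called higher. Their part in these levels was not tested.

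Acupuncture added to rt-PA went with lower Egr2, Ier2, Klf4 and Egr3 than rt-PA alone. In rt-PA+Acu against rt-PA edgeR called 4 of the 10 genes lower, against 8.16% of 12999 genes tested, and 0 higher, against 7.17%. At an unadjusted p under 0.05 edgeR gave 0 of the 10 higher, against 2927 genes in all. DESeq2 called 0 of the 10 higher, against 1030 genes in all. Egr2 fell by 2.64 (SE 0.28, adjusted p = 0.00134), a 6.25-fold lower level. Ier2 fell by 1.78 (SE 0.29, adjusted p = 0.00468) and Klf4 by 1.37 (SE 0.32, adjusted p = 0.0161). Egr3 fell by 1.18 (SE 0.28, adjusted p = 0.016). The median of the 10 was -0.81, beside -0.0027 for all genes tested. Without rt-PA replicate 1, which had the highest Egr3 and Klf4 of its group, only Egr2 and Ier2 were called, Egr3 being -0.83 (adjusted p = 0.0343) and Klf4 -1.07 (adjusted p = 0.05). The Egr3 call was also lost without rt-PA+Acu replicate 1 (adjusted p = 0.0537) and that of Klf4 without rt-PA+Acu replicate 2 (adjusted p = 0.0538).

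The remaining genes did not pass in that comparison. Nr4a1 and Nr4a2 had values of 0.46 (SE 0.22) and 0.54 (SE 0.45), with adjusted p = 0.141 and 0.381. Egr1 was at -0.35, Egr4 at -0.43 and Nr4a3 at -0.22. Npas4 was at -1.34 (SE 0.47, adjusted p = 0.0598), and at -2.10 (adjusted p = 0.00412) without rt-PA+Acu replicate 3, the library with the highest Npas4 of that group. DESeq2 gave it an adjusted p of 0.024.

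Other early-response genes were also lower with acupuncture, 13 of 18 being called lower than in rt-PA and 0 higher by edgeR, at an unadjusted p under 0.05 or by DESeq2, with a median of -1.69. Atf3, a stress-induced repressor, fell by 4.25 (SE 0.47, adjusted p = 0.00153). Bdnf fell by 1.75 (adjusted p = 0.00195) and Nptx2 by 2.75 (adjusted p = 0.00153), while Arc was at -0.21 (adjusted p = 0.379). Crem was called and fell by 2.23, and Mef2c and Mrtfb were called higher by 1.77 and 1.36. Markers of other cells moved in the same comparison. Endothelial markers (7 of 8 in the table) summed to 184 to 213 CPM in rt-PA+Acu against 461 to 634 in rt-PA, with 5 of 7 called lower. Neutrophil markers summed to 23.8 to 31.1 CPM against 120 to 152 CPM, with 5 of 6 called lower, and monocyte markers to 117 to 125 CPM against 394 to 622 CPM, with 4 of 6 called lower. Neuron markers had 4 of 12 called higher and astrocyte markers 4 of 6. The part of these in the levels of Klf4, Ier2, Egr2 and Egr3 was not tested.

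**Figure D3:**
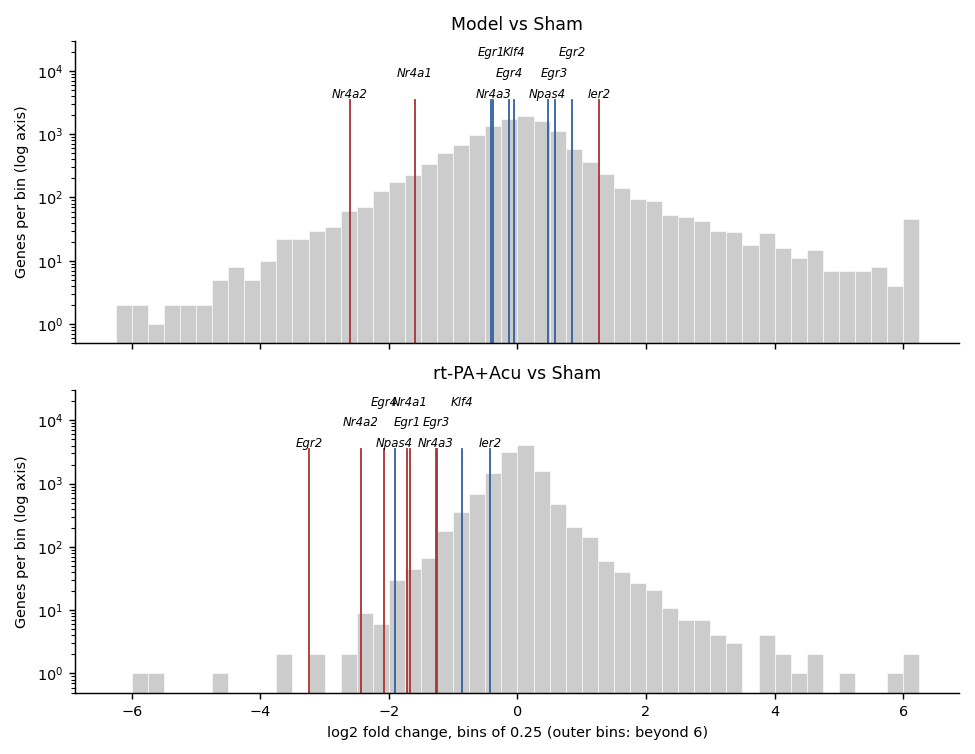
Distribution of log2 fold changes over all genes tested (grey bars, bins of 0.25, logarithmic count axis) in Model against Sham and in rt-PA+Acu against Sham. Vertical lines are the 10 genes, red when called and blue otherwise. In the lower panel all 10 lie left of 0, from -3.24 for Egr2 to -0.43 for Ier2.

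Compared with Sham, the rt-PA+Acu group had few changed genes, yet it had the whole EGR family lower. Of the 10 genes, edgeR called 6 lower, against 1.14% of the 12775 genes tested, and 0 higher, against 0.916%. In all, edgeR called 263 genes in this comparison. At an unadjusted p under 0.05 edgeR gave 0 of the 10 higher, against 1318 genes in all. DESeq2 called 0 of the 10 higher, against 200 genes in all. Egr2 fell by 3.24 (SE 0.26, adjusted p = 0.00188), a 9.46-fold lower level, and 0.164% of genes tested had a larger change. Egr4 fell by 2.07 (SE 0.22, adjusted p = 0.00377), Egr1 by 1.72 (SE 0.15, adjusted p = 0.00188) and Egr3 by 1.26 (SE 0.12, adjusted p = 0.00314). Nr4a2 fell by 2.44 (SE 0.34, adjusted p = 0.00956) and Nr4a1 by 1.68 (SE 0.19, adjusted p = 0.0041). The rt-PA+Acu libraries lay below all Sham libraries for these 6 genes and for Npas4. The share of all genes tested that separate in this way was not counted.

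The 4 genes not called had values on the same side of Sham. Npas4 was at -1.91 (SE 0.46, adjusted p = 0.0565), Nr4a3 at -1.27 (SE 0.40, adjusted p = 0.111), Klf4 at -0.86 (adjusted p = 0.28) and Ier2 at -0.43 (adjusted p = 0.527). The Ier2 value was 0.01 without Sham replicate 1. The median of the 10 was -1.70, beside 0.02 for all genes tested, of which 47.6% had values below 0. Leaving out 1 library at a time called 5 to 7 of the 10, and the share of all genes called in these fits was not counted. The Nr4a2 call was lost without Sham replicate 2 (-2.26, adjusted p = 0.0545). Npas4 was called without rt-PA+Acu replicate 3 (-2.69, adjusted p = 0.00741) and by DESeq2 (adjusted p = 0.00158), and Nr4a3 was called without rt-PA+Acu replicate 1 (-1.88, adjusted p = 0.0158).

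Genes around these factors were mostly not called between rt-PA+Acu and Sham. Of 18 other early-response genes 0 were called higher (2 at an unadjusted p under 0.05 in edgeR and 0 in DESeq2) and 1 lower, with a median of -0.30. Without Sham replicate 1 these counts were again 0 and 1, and the median was -0.03. The 1 was Arc, which had 152, 220.1 and 146 CPM in Sham and 37.5, 26.4 and 35.5 CPM in rt-PA+Acu and fell by 2.38 (SE 0.20, adjusted p = 0.00188). Jun was at 0.13 (adjusted p = 0.807) and Fos at -1.16 (SE 0.63, adjusted p = 0.31), or at -0.36 (SE 0.57, adjusted p = 0.783) without Sham replicate 1. Among 5 known targets, Arc and Bdnf were called lower, and Bdnf fell by 1.11 (SE 0.19, adjusted p = 0.0194), and Nptx2 was at -0.27 (adjusted p = 0.55). Of 12 upstream regulators, 7 partners and co-repressors and 12 relatives (KLF, SP, NPAS, nuclear receptor and IER genes outside the 10), 0 were called by edgeR. DESeq2 called 0, 1 and 1 of these lists, and 4, 3 and 3 had an unadjusted edgeR p under 0.05. Srf and Crem had adjusted p = 0.0385 and 0.0378 at -0.61 and -0.70, under the fold threshold.

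**Figure D4:**
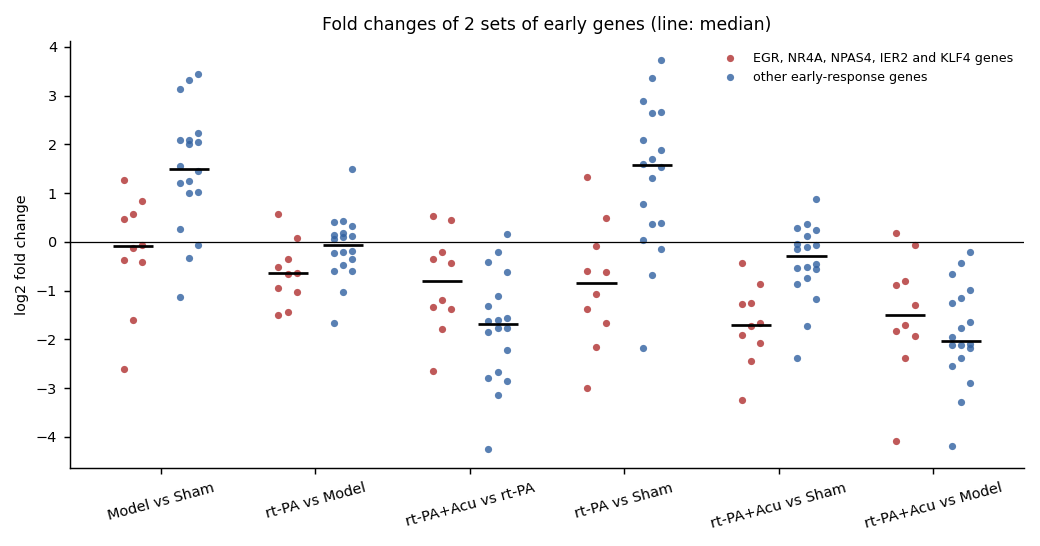
Log2 fold changes in the 6 comparisons for the 10 genes (red) and for 18 other early-response genes (blue), 1 point per gene, with the median as a line. In Model against Sham the medians are -0.09 and 1.504, and in rt-PA+Acu against Sham they are -1.70 and -0.30.

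Marker totals moved with parts of that comparison. Striatal neuron markers were 368, 967 and 780 CPM in Sham and 289, 269 and 216 CPM in rt-PA+Acu, with 5 of 6 called lower and a median of -2.38. Within Sham, replicate 1 had the lowest striatal total, the highest Egr1, Egr2, Egr4 and Nr4a1 and the lowest Egr3, and Nr4a2 was highest in replicate 2, as was the striatal total. Neuron markers were 8504, 8937 and 5719 CPM in rt-PA+Acu, with 0 of 12 called by edgeR or DESeq2 and 3 at an unadjusted edgeR p under 0.05. Endothelial markers were 283 to 314 CPM in Sham and 184 to 213 CPM in rt-PA+Acu, with 1 of 7 called lower. Smooth muscle and pericyte markers were 253 to 303 CPM in Sham and 134 to 149 CPM in rt-PA+Acu, with 3 of 6 called lower (Acta2, Myh11 and Rgs5, at -1.76, -1.07 and -1.24). Markers of homeostatic microglia were 511 to 629 CPM in Sham and 418 to 464 CPM in rt-PA+Acu, with 2 of 6 called lower (P2ry12 and Tmem119, at -1.03 and -1.41). Of the other lists, 0 of 6 astrocyte and 0 of 6 oligodendrocyte markers were called by edgeR or DESeq2 (3 and 0 at an unadjusted edgeR p under 0.05), 1 of 5 monocyte markers tested was called lower, and 1 of 3 neutrophil markers and 1 of 1 choroid plexus marker tested were called higher. The part of any of these in the 6 calls was not tested.

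**Figure D5:**
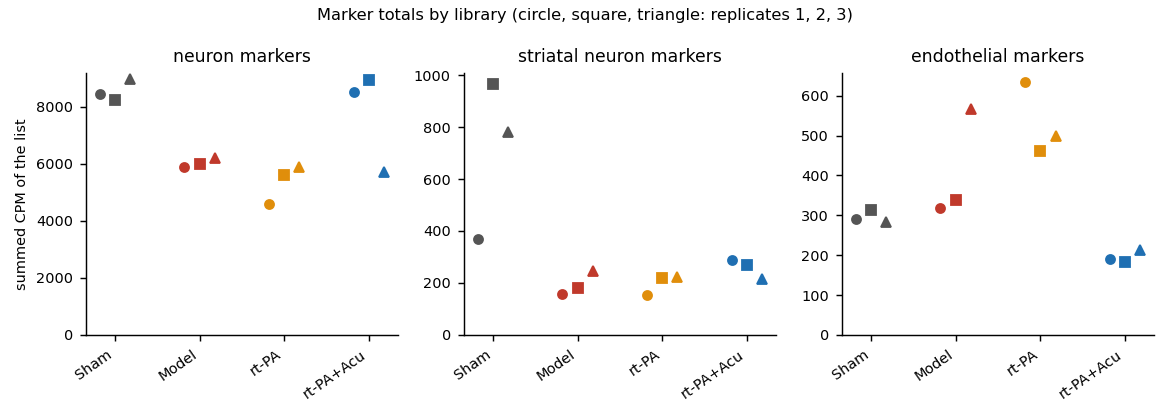
Summed CPM of the neuron, striatal neuron and endothelial marker lists in each library, from 0, by group (circle, square and triangle are replicates 1, 2 and 3). Striatal totals span 368 to 967 CPM for Sham and 155 to 289 CPM elsewhere, and endothelial totals are lowest in rt-PA+Acu.

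Compared with Model, the rt-PA+Acu group had all 4 EGR genes and Ier2 lower, and no NR4A gene passed the test with all libraries. In this comparison edgeR called 5 of the 10 lower, against 6.62% of 12855 genes tested, and 0 higher, against 7.9%. At an unadjusted p under 0.05 edgeR gave 0 of the 10 higher, against 2949 genes in all. DESeq2 called 0 of the 10 higher, against 1111 genes in all. Egr2 fell by 4.08 (SE 0.48, adjusted p = 0.00154), a 16.9-fold lower level. Egr4 fell by 1.94 (SE 0.26, adjusted p = 0.00223), Egr3 by 1.83 (SE 0.17, adjusted p = 0.000788) and Ier2 by 1.70 (SE 0.29, adjusted p = 0.0051). Egr1 fell by 1.30 (SE 0.39, adjusted p = 0.036), a call lost under 6 alternatives, in which the adjusted p reached 0.111. These were the replicate block and the fits without Model replicate 1, Model replicate 3 or any 1 rt-PA+Acu library, the value being -0.94 without Model replicate 3. Nr4a3 was at -0.88 (SE 0.42, adjusted p = 0.144), and was called at -1.49 (adjusted p = 0.0185) without rt-PA+Acu replicate 1. Nr4a1 was at -0.07, Nr4a2 at 0.18 and Klf4 at -0.80 (adjusted p = 0.182), and Npas4 was at -2.38 with Model replicate 3 and at 0.27 without it. The median of the 10 was -1.50, and that of 18 other early-response genes, 14 of them called lower, was -2.03. Nptx2 was 21.0-fold lower (adjusted p = 0.000436) and Bdnf 10.9-fold lower (adjusted p = 0.000649).

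Ratios between members of a family were also compared, with a test whose p cannot fall under 0.1 for 3 libraries against 3. The log2 ratio of Egr2 to Egr1 counts, not corrected for length and so comparable only between libraries, was -3.76 ± 0.17 (SD, n = 3) in Sham. Model libraries had -2.49 ± 1.39, rt-PA libraries -2.94 ± 0.69 and rt-PA+Acu libraries -5.30 ± 0.60. The last ratio differed from that of Sham by -1.54 and from that of rt-PA by -2.36, with no overlap, and each exact two-sided permutation p was 0.1, the smallest that 3 against 3 allows. The ratio of Nr4a2 to Nr4a3 was 0.67 ± 0.29 in Sham and -1.70 ± 1.28 in Model, again without overlap (exact permutation p = 0.1). These ratios were chosen after their values were seen, 36 such comparisons were made, and the adjusted p of these was 0.4, so none passes.

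The genes with the most similar profiles over the 12 libraries were found by the root mean square difference of log2 CPM, each gene centred on its own mean, among 12744 genes with a mean of at least 1 CPM. This is a description and carries no test. Egr3 was closest to Dusp6 (0.249), a phosphatase of ERK, followed by Lmcd1 (0.282) and Acta2 (0.321). Ier2 was closest to Pdgfb (0.284), Sik1 (0.295) and Kdm6b (0.299), and Klf4 to Btg2 (0.364), Acvrl1 (0.382) and Icam2 (0.397), of which the last is an endothelial adhesion molecule. Icam2 was not among the 3 nearest to Klf4 with a prior count of 0.5, nor without Model replicate 3, where these were Adam8, Depp1 and Btg2. Egr4 was closest to Egr1 (0.459), then Phf21b (0.461) and Arc (0.469), and Egr1 to Slc9a5 (0.422), Ntng2 (0.444) and Phf21b (0.448). Nr4a1 was closest to Whrn (0.344), Apoe (0.381) and Mfge8 (0.381). Egr2 was closest to Crh (0.764), the stress neuropeptide, with Lmcd1 (0.805) and Bdnf (0.818) next. Such distances grow with a gene's own root mean square over the libraries, which ran from 0.716 for Egr3 to 1.51 for Egr2. The nearest to Npas4 were Gata2 (0.69), Sema3g (0.693) and Tinagl1 (0.722), for Nr4a2 they were Abcg2 (0.48), Fxyd7 (0.499) and Slc10a6 (0.528), and for Nr4a3 Ntng2 (0.468), Sts (0.498) and Marcksl1 (0.506). Of these 30 genes, 20 were again among the 3 nearest to the same gene without Model replicate 3.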

How the data were processed

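The 12 RNA sequencing libraries of rat cortex, 3 per group by the labels, were analysed. The authors selected polyadenylated mRNA with an RNA integrity number over 7.0, made strand-marked libraries and read pairs of 150 bases. They aligned the reads with STAR 2.7.10a to mRatBN7.2. The deposited values are whole-number counts per gene, not normalized. The paper names Salmon 1.9.0 for counting, and the submitters' processing notes also name featureCounts 2.0.1. The use of the molecular identifiers in the adapters is not given in the sources used here, so a limit from counts covers counting error only.

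Comparisons were made pairwise, with the 6 libraries of a pair alone in the fit, in edgeR 4.0.16 (R 4.3.3) with TMM scaling, filterByExpr, the quasi-likelihood test (two-sided) and Benjamini-Hochberg adjustment over all genes tested. After the study's thresholds, a gene was called when its log2 fold change was beyond 1 in either direction and its adjusted p was under 0.05. The study used DESeq2, here (1.42.0) an alternative. On simulated data with 200 genes changed 4-fold, 177 to 192 were recovered with 3 to 12 false calls. These counts were drawn with the spread that edgeR itself estimated, so the result does not give the power for smaller changes. Log2 CPM used a prior count of 2.

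The 10 genes and the gene lists were chosen with earlier results of these data known. All 10 genes are named in each comparison, list genes mainly where called, and for each of the 10 genes the 3 most similar profiles. Junb, Dusp1, Flt1 and 4 of 5 red cell markers were not analysed here. Figures used matplotlib 3.10.9 under Python 3.11.15.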

Additional observations from a re-analysis of the deposited data

How the results depend on the processing

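The alternatives were DESeq2, RLE factors or library size alone, no filter or a minimum of 10 counts per library, a joint fit of the 12 libraries, no fold threshold, a replicate block and leaving out each library. Of the values of single genes under these, 723 kept their direction and side of the threshold, 14 gained a call, 17 lost one and 24 changed sign. The cause was not tested. DESeq2 called 2 of the 10 genes in rt-PA against Model where edgeR called 0. Leaving out 1 library gave 3 to 5 calls in Model against Sham and 2 to 5 in rt-PA+Acu against rt-PA. The share of all genes called was not counted in these fits or with the replicate block. With library size alone, Klf4 in Model against Sham became 0.0183 and Egr3 in rt-PA against Sham 0.0671.

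Same-numbered libraries had correlations of their deviations from the group means from -0.254 to 0.146, and differently numbered libraries from -0.2 to 0.232. Deviations within a group of 3 are tied to each other, so these values cannot decide whether the numbers pair the samples. With the replicate block Npas4 became -0.68 in Model against Sham and 0.15 in rt-PA against Model, and Nr4a1 became 0.0172 in rt-PA+Acu against Model. The block moved the number of the 10 genes called from 4 to 5 in rt-PA+Acu against rt-PA, from 6 to 7 in rt-PA+Acu against Sham and from 5 to 4 in rt-PA+Acu against Model, and left the number as it was in the other comparisons.

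Leaving out 1 library changed the sign of values that were not called. In Model against Sham, Egr4 ran from -0.33 to 0.0894, Klf4 from -0.64 to 0.58 and Npas4 from -2.17 to 0.99. In rt-PA against Model, Ier2 ran from -0.0231 to 0.26, Nr4a2 from -0.87 to 0.27 and Npas4 from -1.55 to 1.61. Nr4a3 in rt-PA+Acu against rt-PA ran from -0.83 to 0.16, Egr3 in rt-PA against Sham from -0.43 to 0.17 and Ier2 in rt-PA+Acu against Sham from -0.76 to 0.0058. In rt-PA+Acu against Model, Nr4a1 ran from -0.36 to 0.40, Nr4a2 from -0.13 to 0.82 and Npas4 from -3.15 to 0.27. Of the 30 genes given as most similar, 29 were again among the 3 nearest with a prior count of 0.5. Egr2 in rt-PA+Acu rests on 17 to 29 counts per library, and 3 libraries per group limit every comparison.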
